A study of Mus musculus with 6 samples.

Results

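The cells described here were the neutrophils that carried the most Retnlg, Mmp8 and Mmp9 transcripts in bone marrow, which are gelatinase-stage-like by these 3 marker genes. They were chosen as every cell with cluster number 3 in the deposited metadata, at the clustering resolution of 0.1, in all 6 libraries. The rule gave 7914 cells of 69776 kept cells. Femur replicates 1 to 3 held 1114, 1221 and 2293 of them, and mandible replicates 1 to 3 held 1188, 1104 and 994. Raw unique molecular identifiers (UMIs, 1 per captured transcript) of these cells were summed per library, which gave 6734719 to 16976281 UMIs per library.

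The study asked how CD11b+ myeloid cells differ between long bone and jaw marrow, using single-cell RNA sequencing of 3 femur and 3 mandible libraries from C57Bl/6 mice aged 2 months. Cells that display CD11b, the product of the integrin gene Itgam, were pulled out on magnetic beads. Femur marrow was flushed from femurs and tibiae by the labels and from femurs alone by the methods, and mandible marrow was flushed after the molars had been taken out, together with their sockets. Femur replicate 1 was female and the other 5 libraries were male. No mouse carried a transgene or received a treatment by the labels, and the labels do not say how many mice went into a library, so p-values measure the spread between these libraries, which may be technical.

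Neutrophils mature in the marrow in steps that are read from their granules. Primary granules with myeloperoxidase and elastase are filled first, and secondary granules with lactoferrin, cathelicidin and lipocalin follow in myelocytes and metamyelocytes. Gelatinase granules with gelatinase B are filled last, at about the band cell stage, before the cells leave for the blood. Transcripts of 1 step fade as those of the next appear. Retnlg encodes resistin-like gamma, a secreted protein abundant in mouse marrow and blood neutrophils, Mmp8 encodes neutrophil collagenase and Mmp9 encodes gelatinase B.

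On the mouse build mm10 (GENCODE vM21), Retnlg is at chr16:48872621-48874496 on the plus strand, Mmp8 at chr9:7558456-7568485 on the plus strand and Mmp9 at chr2:164940780-164955850 on the plus strand, and none of the 3 overlaps another annotated gene. The 250 bases upstream of the RefSeq start (build GRCm38.p6) are shown for Retnlg and Mmp8, the markers with an entry, and for Prok2, which had the second highest ratio of its level in cluster 3 to that of the neighbouring clusters. Capitals mark matches, on either strand, to the letters TTGCNNAA of C/EBP factors, GAGGAAGT of PU.1 and TGANTCA of AP-1, which are factor families known in granulocytes.
Retnlg, chr16:48872358-48872607, plus strand: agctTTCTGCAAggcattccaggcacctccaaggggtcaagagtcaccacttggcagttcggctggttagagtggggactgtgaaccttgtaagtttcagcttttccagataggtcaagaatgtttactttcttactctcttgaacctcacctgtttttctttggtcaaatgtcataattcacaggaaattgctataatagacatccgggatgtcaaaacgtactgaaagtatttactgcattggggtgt
Mmp8, chr9:7558179-7558428, plus strand: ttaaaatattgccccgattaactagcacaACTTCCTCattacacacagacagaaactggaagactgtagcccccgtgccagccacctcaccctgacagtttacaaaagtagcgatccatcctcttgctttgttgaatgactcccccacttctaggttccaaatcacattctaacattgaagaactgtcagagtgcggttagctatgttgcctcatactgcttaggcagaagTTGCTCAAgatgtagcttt
Prok2, chr6:99726393-99726642, minus strand: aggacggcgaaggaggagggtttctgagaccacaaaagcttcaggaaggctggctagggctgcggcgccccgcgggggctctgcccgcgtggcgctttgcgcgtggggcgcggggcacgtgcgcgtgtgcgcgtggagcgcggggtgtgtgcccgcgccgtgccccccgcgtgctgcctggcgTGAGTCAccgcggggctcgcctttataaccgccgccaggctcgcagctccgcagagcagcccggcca
The Mmp8 window held a C/EBP match that starts 19 bases before the gene start and a PU.1 match that starts 221 bases before it, the Retnlg window held a C/EBP match 246 bases before it, and the Prok2 window held an AP-1 match 67 bases before it. Of 32851 windows of the same length, 9.56% held the C/EBP letters, 2.44% the PU.1 letters and 6.75% the AP-1 letters. Of the 40 genes with the highest ratio of cluster 3 to the next cluster among those highest there in 6 of 6 libraries, 32 had windows (36 in all), and 3 of the 32 held the C/EBP letters, 3 the AP-1 letters and 1 the PU.1 letters. These are matches of letters and not bound sites.

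All 3 markers were highest in cluster 3 of the 9 clusters in 6 of 6 libraries. These levels describe the cluster and were not tested, since the clusters were made from such genes. Retnlg measured 22232, 28984 and 32154 CPM (UMIs of the gene per 1000000 UMIs summed over the cells of a cluster) in femur replicates 1 to 3 and 28397, 27532 and 23445 CPM in mandible replicates 1 to 3. Its mean was 27124 ± 3688 CPM (SD, n = 6), beside 4821 CPM in cluster 0, the neutrophils richest in Ltf, and 23043 CPM in cluster 2, the neutrophils richest in Stfa2l1. The step from cluster 0 to cluster 3 was steep, at a ratio of 5.63, and that to cluster 2 shallow, at 1.18.

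Mmp8 had a ratio of 1.58 to cluster 2, beside 1.18 for Retnlg, and of 2.09 to cluster 0, beside 5.63 for Retnlg. It measured 6402, 5125 and 4471 CPM in the femur libraries and 6265, 5545 and 4713 CPM in the mandible libraries, with a mean of 5420 ± 798 CPM (SD, n = 6), beside 2589 CPM in cluster 0 and 3433 CPM in cluster 2. Mmp9 had a mean of 2833 ± 294 CPM (SD, n = 6), with 2970, 2900 and 2345 CPM in the femur libraries and 3238, 2792 and 2756 CPM in the mandible libraries. Its means in clusters 0 and 2 were 1477 and 2350 CPM. In each library both genes were higher in cluster 3 than in either neighbour, and for both the femur and mandible libraries overlapped.

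**Figure D1:**
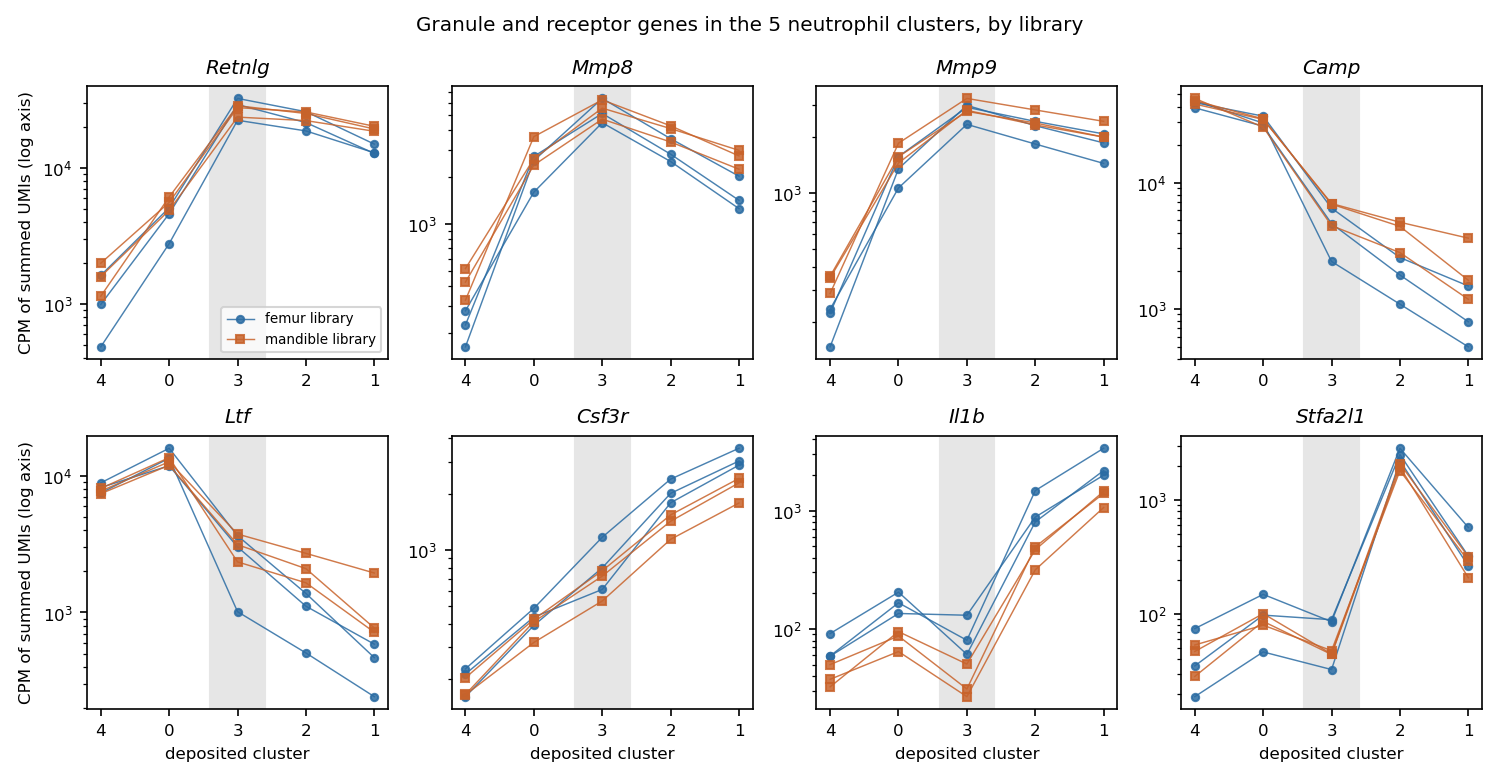
Level of 8 genes in the deposited clusters that are called neutrophils here, in order of falling Camp level (x axis), as CPM of the summed UMIs on a log axis (y axis), with 1 line per library and cluster 3 shaded. Retnlg, Mmp8 and Mmp9 peak in cluster 3 in 6 of 6 libraries, Camp falls along the order from 43246 to 1546 CPM on average, and Stfa2l1 reaches 2244 CPM on average in cluster 2 after 57.3 CPM in cluster 3.

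The secondary granule genes were lower in cluster 3 than in cluster 0 as a sum. Summed over 13 secondary granule genes, the median over libraries was 120671 CPM in cluster 0, 44451 CPM in cluster 3, 28022 CPM in cluster 2 and 17554 CPM in cluster 1, which holds the neutrophils richest in Il1b. Camp, the cathelicidin precursor, had a mean of 30396 CPM in cluster 0 and 5240 ± 1717 CPM (SD, n = 6) in cluster 3. Ltf, the iron-binding lactoferrin, went from 13233 CPM in cluster 0 to 2817 ± 1016 CPM (SD, n = 6) in cluster 3.

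The 12 genes listed here as tertiary granule genes had a median sum of 10450 CPM in cluster 0, 13678 CPM in cluster 3, 10989 CPM in cluster 2 and 8675 CPM in cluster 1. This sum is not separate from the markers, since it holds Mmp8 and Mmp9. Its peak in cluster 3 therefore does not speak for the other members, which were not summed alone. The means of Mmp8 and Mmp9 were 5420 and 2833 CPM in cluster 3, 2589 and 1477 CPM in cluster 0, and 3433 and 2350 CPM in cluster 2. Mmp25, a membrane-bound metalloproteinase of these granules, had 412 CPM in cluster 3 on average against 251 and 260 CPM in clusters 0 and 2. Not every listed member peaked there: Arg2, a mitochondrial arginase kept in the list, had 60.2, 229 and 412 CPM on average in clusters 0, 3 and 2. Fpr1, the receptor for formylated bacterial peptides, had 418 CPM in cluster 3 on average and was highest there in 6 of 6 libraries.

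Transcripts of the primary granule proteases were near background. Elane, the elastase gene, had a mean of 1058 CPM in cluster 4, whose cells carried phase calls of S and G2M in 40.8% and 58.1% of cases, and 4.85 CPM in cluster 0 and 4.83 CPM in cluster 3. The sum of 9 primary granule genes was nevertheless 2422 CPM in cluster 3, as a median over libraries, and Srgn, a proteoglycan core of many granule types that is also made by later cells, held 2182 CPM of it on average.

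The calgranulins S100a8 and S100a9, cytosolic calcium-binding proteins that neutrophils hold in large amounts, took 25.8% to 36.3% of all UMIs of cluster 3. That share was highest in femur replicate 3 and mandible replicate 2, at 36.3% and 34.3%, so CPM values of all other genes are set against a different remainder in these libraries. TMM factors, which rescale for such differences, ran from 0.868 in femur replicate 3 to 1.084 in femur replicate 2.

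Receptors that act in leaving the marrow were read at high levels. Csf3r, the receptor for granulocyte colony-stimulating factor, had mean levels of 410, 768, 1724 and 2659 CPM in clusters 0, 3, 2 and 1. Cxcr2, the receptor for chemokines that draw neutrophils to the blood, had 333, 952, 1241 and 1477 CPM in the same order, so cluster 3 stood nearer to cluster 2 than to cluster 0. Cxcr4, which holds cells in marrow, had 136, 213, 195 and 216 CPM. Among transcription factors, Cebpe, needed for secondary granules, had 342 CPM in cluster 0 and 98.2 CPM in cluster 3, while Spi1, which encodes PU.1, had 433 CPM and 587 CPM.

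Of 2780 genes with a mean of at least 50 CPM in cluster 0, 3 or 2, 1247 (44.9%) lay between clusters 0 and 2 in 6 of 6 libraries. Of these 2780, 914 were higher at each step from cluster 0 over 3 to 2 and 332 lower at each step in every library. Fewer genes stood outside, with 182 genes above both neighbours and 127 below both in 6 of 6 libraries, and 97 genes were highest of all 9 clusters in 6 of 6.

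By the ratio of the mean in cluster 3 to the mean of clusters 0 and 2, Gpr27 led. Gpr27, an orphan receptor coupled to G proteins, had 108 ± 13.1 CPM (SD, n = 6) in cluster 3, 41.2 CPM in cluster 0 and 55.4 CPM in cluster 2, a ratio of 2.24. Prok2, which encodes the secreted peptide prokineticin 2, had 78.0 CPM against 14.6 and 56.1 CPM, a ratio of 2.20. Ifrd1, a regulator of transcription in terminal differentiation of neutrophils, had a ratio of 1.99, and Nt5e, the ectonucleotidase CD73, one of 1.81. The other genes among the 10 highest ratios were Retnlg, Mmp8, Tinagl1, Cd55, Gm36723 and Ctnnbip1. Each of the 10 was highest in cluster 3 in 6 of 6 libraries except Cd55, a complement inhibitor of the cell surface, which was so in 2 of 6.

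At the other end were genes that a neighbour carried at far higher levels. The stefins, inhibitors of cysteine proteases, marked cluster 2: Stfa2l1 had 2244 CPM there on average and 57.3 CPM in cluster 3, and Cstdc4 had 2617 and 28.8 CPM. Il1b, the inflammatory cytokine, had 739 CPM in cluster 2 and 63.5 CPM in cluster 3, which was also below the 126 CPM of cluster 0. Fcnb, a ficolin of immature neutrophils, had 244 CPM in cluster 0 and 5.99 CPM in cluster 3, and Chil3, a chitinase-like protein, had 4855 and 454 CPM.

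The label was checked against other readouts. The deposited ImmGen label was neutrophil for 7913 of 7914 cells and monocyte for 1, and the second reference labelled 7573 cells (95.7%) granulocytes, 339 monocytes and 2 dendritic cells. Phase calls were G1 for 7762 cells (98.1%) and S for 152 (1.92%), with 0 of 7914 cells called G2M. The 25 G2M genes summed to 164 to 231 CPM per library, beside a median of 5294 CPM in cluster 4. Markers of T and NK cells summed to 15.7 to 20.3 CPM, with Cd3e, Cd8a and Ncr1 at 0 in all libraries. Of these 10 markers, Cd3d alone had a mean of 10 CPM or more. Those of eosinophils, basophils and mast cells summed to 2.77 to 4.16 CPM with Epx at 0, and those of platelets to 1.85 to 3.53 CPM in femur and 4.17 to 9.35 CPM in mandible libraries, without overlap. The 10 monocyte markers summed to 913 to 1170 CPM, beside a median of 7620 CPM in cluster 5, where the sum was highest. Ly6c2 made up most of it in cluster 3, at 836 to 1132 CPM. The next was Csf1r, a receptor that defines the lineage, with a median of 24.4 CPM, and the other 8 had medians from 0.674 to 7.62 CPM. Dendritic cell markers summed to 12.3 to 24.0 CPM, B lineage markers to 53.5 to 110 CPM, macrophage markers to 175 to 277 CPM, erythroid markers to 17.8 to 37.9 CPM in femur and 28.2 to 46.7 CPM in mandible libraries, and odontoblast, bone and stroma markers to 89.1 to 190 CPM, with Dmp1 and Dspp at 0. Runx2 alone of the 14 in that last list had a mean of 10 CPM or more.

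The cluster held together at finer clustering. At deposited resolutions from 0.15 to 0.5, a single cluster held 92.1% to 99.9% of these cells, and it was made up of them to between 94.1% and 99.6%. At resolution 0.075 they shared a cluster of 23742 cells, of which they were 33.0%, with the cells of cluster 1. The median cell of cluster 3 had 6999.5 UMIs and 1780 genes, between cluster 0 with 11168 UMIs and cluster 2 with 5756. Of 7900 distinct barcodes, 14 occurred in more than 1 library, and 240 cells (3.03%) had over 2 times the median UMIs of their library.

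Free RNA in droplets also yields UMIs of abundant neutrophil genes, so shares of cells with a UMI were set beside cluster 6, which is B-cell-like (Cd79a at 1639 CPM on average, against 0.9 CPM in cluster 3) and had a median of 4284 UMIs per cell beside the 6999.5 of cluster 3. After each cell was thinned to 1000 UMIs, which left out 2 cells of cluster 3 and 1 of cluster 6, the median share over libraries for Retnlg was 100% in cluster 3 and 27.8% in cluster 6. For Mmp8 it was 98.5% and 12.2%, and for Mmp9 92.3% and 13.2%. Unthinned, the median shares for Retnlg, Mmp8 and Mmp9 were 100%, 99.98% and 99.96% in cluster 3 and 63.4%, 25.3% and 27.7% in cluster 6. Elane, at 0.44% thinned in cluster 3 and 0.25% in cluster 6, was at background.

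Relative to their means, the markers Retnlg, Mmp8 and Mmp9 varied less from cell to cell than the secondary granule gene Ltf. Because the clusters were made from such genes, the spread of the markers within a cluster is not independent of how cells were assigned. With each cell thinned to 4000 UMIs, which left out 17 to 105 cells per library, the variance of Mmp9 over cells was 1.5 to 1.8 times its mean, beside a value of 1 for counting alone. Median cells held 9 to 13 Mmp9 UMIs, and the 10th and 90th percentiles were 6 and 18 in femur replicate 1. For Mmp8 the variance was 2.25 to 4.90 times the mean, and for the abundant Retnlg 12.02 to 18.6 times, about as much as the 11.1 to 19.4 times of Ltf. The coefficient of variation, the SD as a percent of the mean, was 31.95% to 40.6% for Retnlg, 34.5% to 50.1% for Mmp8, 35.8% to 40.4% for Mmp9 and 103% to 180% for Ltf. Lcn2, another secondary granule gene, was closer to the markers, at 40.5% to 63.1%. In femur replicate 1, the median cell had 5 Ltf UMIs, the 10th percentile 0 and the 90th 37. Between 14.9% and 35.1% of thinned cells per library had no Ltf UMI.

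Secondary granule genes went together from cell to cell. Spearman's rho across cells, over libraries, ran from 0.564 to 0.826 for Ltf and Camp and from 0.719 to 0.840 for Camp and Ngp, the neutrophilic granule protein. Retnlg went the other way from Ltf, with rho from -0.561 to -0.163, and Camp went the other way from Csf3r, with rho from -0.426 to -0.242. Mmp8 went with the secondary granule genes, with rho from 0.169 to 0.358 for Ltf, 0.164 to 0.396 for Camp, 0.172 to 0.504 for Ngp and 0.0727 to 0.448 for Lcn2. Their medians over libraries were 0.304, 0.286, 0.305 and 0.203, beside 0.179 for Mmp8 and Mmp9, which ran from 0.128 to 0.297. Retnlg and Mmp8 were at -0.304 to -0.153. These correlations are descriptions across 941 to 2221 cells that share a library and were thinned to the same depth. They are also not independent of how cells were assigned to the cluster.

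**Figure D2:**
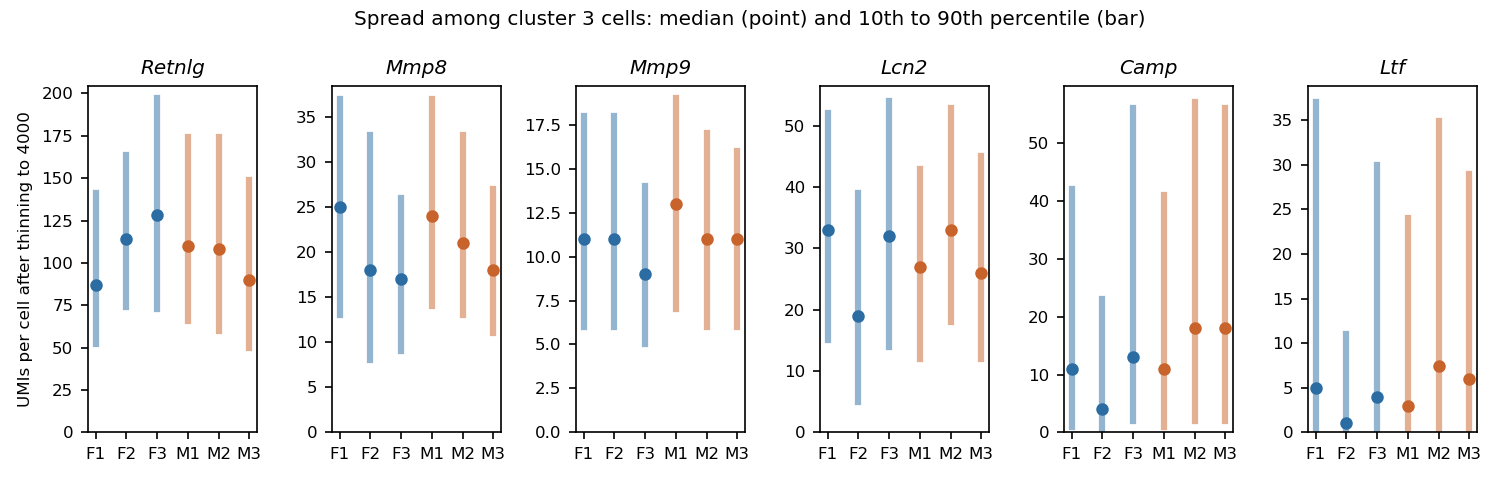
UMIs per cell of 6 genes in cluster 3 after thinning to 4000 UMIs (y axis), by library (F1 to F3 femur, M1 to M3 mandible, x axis), with the median as a point and the 10th to 90th percentile as a bar. The bars of Mmp9 stay within 5 and 19 UMIs, whereas those of Ltf run from 0 to as much as 37.

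Femur replicate 2 stood apart in these genes. Its Ltf level was 1014 CPM, against 2345 to 3748 CPM in the other 5 libraries, its Camp level was 2365 CPM against 4549 to 6811 CPM, and its secondary granule genes took 2.99% of UMIs against 3.96% to 4.94%. The same library had the highest Csf3r level, 1171 CPM against 530 to 800 CPM.

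Cluster 3 made up a larger share of the cells in the mandible libraries, with no overlap, in a design whose smallest exact p is 0.10. It was 10.9%, 10.5% and 10.1% of kept cells in femur replicates 1 to 3 and 13.8%, 12.6% and 12.8% in mandible replicates 1 to 3, or 10.5 ± 0.404% against 13.1 ± 0.647% (SD, n = 3 each; 2-sided exact permutation test, p = 0.1). Counting error was smaller than that gap, with exact Clopper-Pearson 95% intervals of 10.3% to 11.5% for the highest femur library and 11.9% to 13.3% for the lowest mandible library. Among the cells of neutrophil clusters 0 to 4 alone, it was 12.6%, 12.4% and 10.9% in the femur libraries and 15.97%, 16.00% and 15.99% in the mandible libraries (exact permutation p = 0.1). Over all barcodes deposited, kept or not, the means were 9.62 ± 0.682% and 12.5 ± 0.694% (SD, n = 3 each; exact permutation p = 0.1). Fewer cells of the other clusters and more cells of cluster 3 cannot be told apart in such shares.

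**Figure D3:**
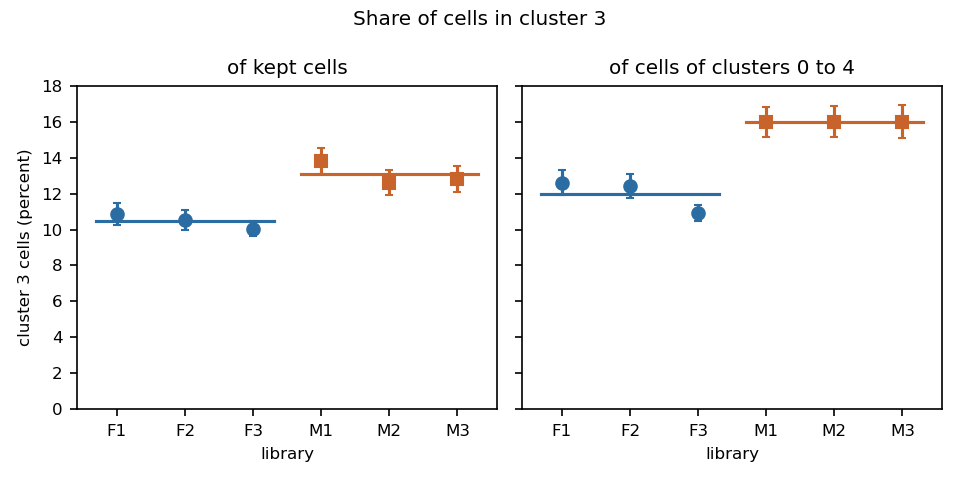
Cells of cluster 3 as a percent of all kept cells (left) and of cells of clusters 0 to 4 (right) in each library (x axis, F femur and M mandible), with exact 95% binomial intervals as bars and site means as lines. Every mandible point lies above every femur point in both panels.

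Per-cell measures of the cluster were compared in a family of 6, in which no measure could pass, since the smallest exact p is 0.1. Median UMIs per cell were 9470, 7062 and 6911 in the femur libraries and 7486.5, 5985.5 and 6259 in the mandible libraries (exact permutation p = 0.3, adjusted over 6 measures p = 0.6). The median mitochondrial share was 0.280 ± 0.0344% against 0.329 ± 0.0439% of UMIs (SD, n = 3 each; exact permutation p = 0.2, adjusted p = 0.6). The share of cells that stayed in the leading cluster at resolution 0.4 was 91.2 ± 1.39% in femur and 93.6 ± 0.245% in mandible libraries, without overlap (exact permutation p = 0.1, adjusted p = 0.6). Median genes per cell, S phase calls and the granulocyte label had exact p of 0.5, 0.9 and 0.6.

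Between sites, few genes passed the test within cluster 3, and how many depended on the setting. The edgeR quasi-likelihood test on the summed counts called 1 of 9270 genes at an adjusted p under 0.05, which is 0.0108% of those tested, and 406 genes (4.38%) had an unadjusted p under 0.05, 155 higher (1.67%) and 251 lower (2.71%) in mandible. The count past the adjusted threshold was 134 with no filter on low counts, 30 with DESeq2, and in the 4 male libraries 499 with the library number as a replicate block and 0 without it. Without femur replicate 3, 895 of 9574 genes had an unadjusted p under 0.05. The gene called was Amelx, which encodes amelogenin, the main enamel matrix protein made by ameloblasts of the growing tooth. It had 217, 79 and 91 UMIs in mandible replicates 1 to 3, or 23.2, 10.95 and 13.5 CPM, and 1, 0 and 0 UMIs in the femur libraries (edgeR adjusted p = 0.000562). The summed level was 599 times higher in mandible, with an exact 95% counting interval of 107 to 23719 that covers counting error only. Amelx lies at chrX:169176114-169187200 on the minus strand, and overlaps Arhgap6 on the other strand.

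Amelx UMIs were not particular to these cells. In mandible replicates 1 to 3 they were found in 6.73%, 2.81% and 6.14% of cluster 3 cells, in 8.23%, 4.51% and 10.3% of cluster 0 cells, and in 4%, 1.02% and 4.26% of the B-cell-like cells of cluster 6, as counted. Of the 7 clusters counted the share was highest in cluster 7, at 13.8%, 18.8% and 14.4%. Clusters 5 and 8 were not counted. The sum of 6 ameloblast markers reached 1322 CPM in the highest library of cluster 5 and 552 CPM in that of cluster 7. Its medians over all 6 libraries there were 8.29 and 98.7 CPM. In mandible replicates 1 to 3, median UMIs per cell were 7486.5, 5985.5 and 6259 in cluster 3 and 4628, 3103.5 and 4354 in cluster 6. Ambn, which encodes the enamel protein ameloblastin, was at 4.17, 1.25 and 1.34 CPM in the mandible libraries and at 0 in the femur libraries (edgeR unadjusted p = 0.000196, adjusted p = 0.287). Enam was found in 7 UMIs in all. The summed level of 6 ameloblast markers in cluster 3 was 12.9 to 28.5 CPM in mandible and 0 to 0.0973 CPM in femur libraries, and its part in other differences was not tested.

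Log2 fold changes of mandible over femur were -0.08 ± 0.26 (SE) for Retnlg, 0.07 ± 0.20 for Mmp8 and 0.11 ± 0.16 for Mmp9, each with an edgeR adjusted p of 0.999. The libraries of the sites overlapped for each. Because cells were clustered by such genes, site differences of the 3 markers within the cluster are not independent of that assignment. None of 13 secondary granule genes had an unadjusted p under 0.05, with a median log2 fold change of 0.12 beside -0.01 over all genes tested, and that median was -0.05 without femur replicate 2 and 0.33, with 2 such genes, without femur replicate 3. Of 12 tertiary granule genes, Arg2 had one, beside the 2.71% of all genes that did in that direction. It measured 303, 288 and 197 CPM in femur and 217, 178 and 191 CPM in mandible libraries, which overlap (log2 fold change -0.40 ± 0.14; edgeR unadjusted p = 0.0166, adjusted p = 0.823).

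A list of 12 genes was drawn mostly from the study's account of these and other clusters of the same samples. It holds Lrrk2, which the text of the study does not name, and leaves out Stfa2l1, which is counted here among the stefins. Since the study chose such genes on these samples, their counts are not independent evidence of a direction. Of the 12, 3 had an unadjusted p under 0.05 and a higher mandible level (mt-Cytb, mt-Co3 and Nfkbiz) and 2 a lower one (Il1b and Ifitm1), beside 1.67% and 2.71% of all genes. The libraries of the sites overlapped for Nfkbiz and for the other 7, Ccl6, Csf3r, Cd33, Ifitm2, Lrrk2, mt-Co2 and Retnlg. Ccl6, a chemokine of myeloid cells, showed the spread: it measured 602, 1513 and 643 CPM in femur and 869, 401 and 502 CPM in mandible libraries, which overlap (-0.62 ± 0.35 on the log2 scale; edgeR adjusted p = 0.999). Its log2 fold change ran from -0.98 to -0.15 with any 1 library left out.

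Among 74 genes (0.798% of those tested) whose libraries did not overlap, with a mean of at least 20 CPM and an unadjusted p under 0.05, 22 were higher and 52 lower in mandible. None of them passed the adjusted threshold in this fit. Of the 41 genes followed through the alternative settings, 10 that had not passed did so with DESeq2 (Il1b, Ifitm1, Gm20528, B430010I23Rik, Gm31925, Ambn, mt-Cytb, mt-Nd1, mt-Nd2 and mt-Nd3), 23 with no filter on low counts and 30 with the library-number block in the 4 male libraries. Il1b, at chr2:129364570-129371139 on the minus strand with the antisense Il1bos across from it, measured 80.4, 131 and 61.1 CPM in femur and 50.6, 31.2 and 26.9 CPM in mandible libraries. Every mandible library lay below every femur library, as was so for 3.87% of all genes (log2 fold change -1.28 ± 0.27 SE; edgeR unadjusted p = 0.000823, adjusted p = 0.432). Thinned to 1000 UMIs, a median of 4.32% of cluster 3 cells and 3.67% of cluster 6 cells held an Il1b UMI, so the level was read from few molecules and lay near background. By site, the means in both clusters lay lower in mandible: the thinned share was 8.07 ± 2.76% in femur and 3.01 ± 0.562% in mandible libraries in cluster 3, and 6.63 ± 2.91% and 2.31 ± 1.49% in cluster 6 (SD, n = 3 each).

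Ifitm1, an interferon-inducible membrane protein, at chr7:140967221-140969825 on the plus strand, measured 88.7, 136 and 172 CPM in femur and 44.2, 75.4 and 60.0 CPM in mandible libraries, again without overlap (-1.16 ± 0.32; edgeR unadjusted p = 0.00442, adjusted p = 0.604). Among these 74 genes the largest negative fold change belonged to Gm20528, a noncoding transcript that overlaps the Ugt1a genes on the other strand. It measured 41.5, 35.1 and 31.2 CPM against 15.5, 13.7 and 7.28 CPM (-1.53 ± 0.26; edgeR adjusted p = 0.287). The other 5 of the 8 lowest were Filip1l, Insyn2b, B430010I23Rik, Gm20404 and Gm48678, with log2 fold changes from -1.20 to -1.01, and 3 of these (B430010I23Rik, Gm20404 and Gm48678) are antisense to Mtus1, Tmcc1 and Itsn2.

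Interferon response genes mostly had negative fold changes. Of 40 listed, 32 passed the low-count filter, and of these 5 had an unadjusted p under 0.05 and a lower mandible level, beside 2.71% of all genes, and 0 a higher one, beside 1.67%. Of the 32, 4 had a log2 fold change above 0, and the median was -0.24, beside -0.01 over all genes. Oasl2, an antiviral protein related to oligoadenylate synthetases, measured 79.7, 117 and 101 CPM in femur and 62.3, 63.2 and 54.3 CPM in mandible libraries, without overlap (-0.72 ± 0.19; edgeR adjusted p = 0.569). The other 4 were Isg15, a ubiquitin-like protein, at -0.75 ± 0.30, Ifi204, a DNA sensor, at -0.49 ± 0.20, Oasl1 at -0.92 ± 0.34, and Ifit3, which is below 10 CPM and was named after its value was seen. The count was 2 without femur replicate 3 or mandible replicate 3 and 11 without femur replicate 1, and the median ran from -0.32 to -0.11 when any 1 library was left out. In the same fits Isg15 ran from -1.06 to -0.34 and Ifi204 from -0.66 to -0.29. The listed genes summed to 2934 to 3825 CPM in femur and 2778 to 3181 CPM in mandible libraries, which overlap.

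The 4 SIRP genes, which encode receptors that pair with inhibitory or activating adaptors on myeloid cells, had a median of -0.94, beside -0.01 over all genes, with 3 lower in mandible at an unadjusted p under 0.05, beside 2.71% of all genes. Sirpb1b measured 138, 225 and 98.7 CPM in femur and 107, 67.8 and 86.6 CPM in mandible libraries, which overlap (-0.79 ± 0.23; edgeR adjusted p = 0.660). Sirpb1c was at -1.09 ± 0.34 and Sirpb1a, named after its value was seen, at 0.555 to 4.98 CPM. These 3 are near-identical copies whose reads can be split between them, so single values are uncertain, and Sirpa, the inhibitory member that is separate in sequence, was at 0.03. Femur replicate 2 held the highest value of each of the 3, and without it the median was -0.58. Summed, the 4 SIRP genes had 291 to 584 CPM in femur and 281 to 399 CPM in mandible libraries, which overlap.

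The mitochondrially encoded genes mostly had positive fold changes. Of 13, which encode subunits of the respiratory chain and ATP synthase, 6 had an unadjusted p under 0.05 and a higher mandible level, beside 1.67% of all genes, 11 had a log2 fold change above 0, and 7 had libraries that did not overlap, beside 3.84% of all genes. The median was 0.34, and 0.27 to 0.45 with any 1 library left out, with 4 such genes without mandible replicate 1. mt-Nd1, a subunit of complex I, measured 80.8, 86.5 and 59.6 CPM in femur and 157, 111 and 120 CPM in mandible libraries (0.79 ± 0.15; edgeR unadjusted p = 0.000402, adjusted p = 0.380). mt-Cytb, of complex III, measured 216, 219 and 182 CPM against 371, 295 and 303 CPM (0.66 ± 0.14; edgeR adjusted p = 0.421). mt-Nd2, mt-Nd3, mt-Nd4 and mt-Co3 had log2 fold changes of 0.76, 0.74, 0.39 and 0.41. All 13 lie on the mitochondrial genome and can move together, so the counts of genes above do not stand for separate changes. The sum of all 13 was 2924 to 3620 CPM in femur and 3782 to 4709 CPM in mandible libraries, and whether it moves with RNA quality was not tested. The median of this sum over libraries was 3701 CPM in cluster 3, 7254 CPM in cluster 0 and 4219 CPM in cluster 2, whose libraries ran from 2865 to 5682 CPM. The mitochondrial share of the median cell was ordered otherwise, at 0.293% of UMIs in cluster 3 and 0.245% in cluster 2.

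Fosl1, an AP-1 subunit, had the highest log2 fold change past these criteria. It measured 42.0, 24.8 and 26.5 CPM in femur and 60.9, 75.4 and 43.7 CPM in mandible libraries, with no overlap (0.98 ± 0.26; edgeR unadjusted p = 0.00396, adjusted p = 0.604). The others of the 8 highest, beside mt-Nd1, mt-Nd2, mt-Nd3 and mt-Cytb, were the noncoding Gm31925 at 0.86 ± 0.18, Btbd19 at 0.81 ± 0.22 and Krt83, a keratin, at 0.65 ± 0.18.

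Immediate early genes, which cells switch on within minutes of a stimulus, rested on 1 library. Of 19, 2 had an unadjusted p under 0.05 and a higher mandible level, beside 1.67% of all genes, and the median was 0.32, beside -0.01. Egr1 measured 106, 183 and 28.9 CPM in femur and 633, 180 and 210 CPM in mandible libraries, which overlap (1.76 ± 0.58; edgeR unadjusted p = 0.0127, adjusted p = 0.771), and the other was Ier2 at 0.41 ± 0.17. Without mandible replicate 1 the median of the list was 0.08 and 0 of its genes were higher at that p, while 6 were without femur replicate 2 and 5 without mandible replicate 3. Nfkbiz, an atypical inhibitor of NF-kB, measured 550, 543 and 337 CPM against 772, 508 and 663 CPM, which overlap (0.46 ± 0.17; edgeR adjusted p = 0.918). It belongs to another list, of NF-kB subunits and feedback genes. There it was the 1 gene of 14 tested with an unadjusted p under 0.05, beside 1.67% of all genes on the higher side.

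**Figure D4:**
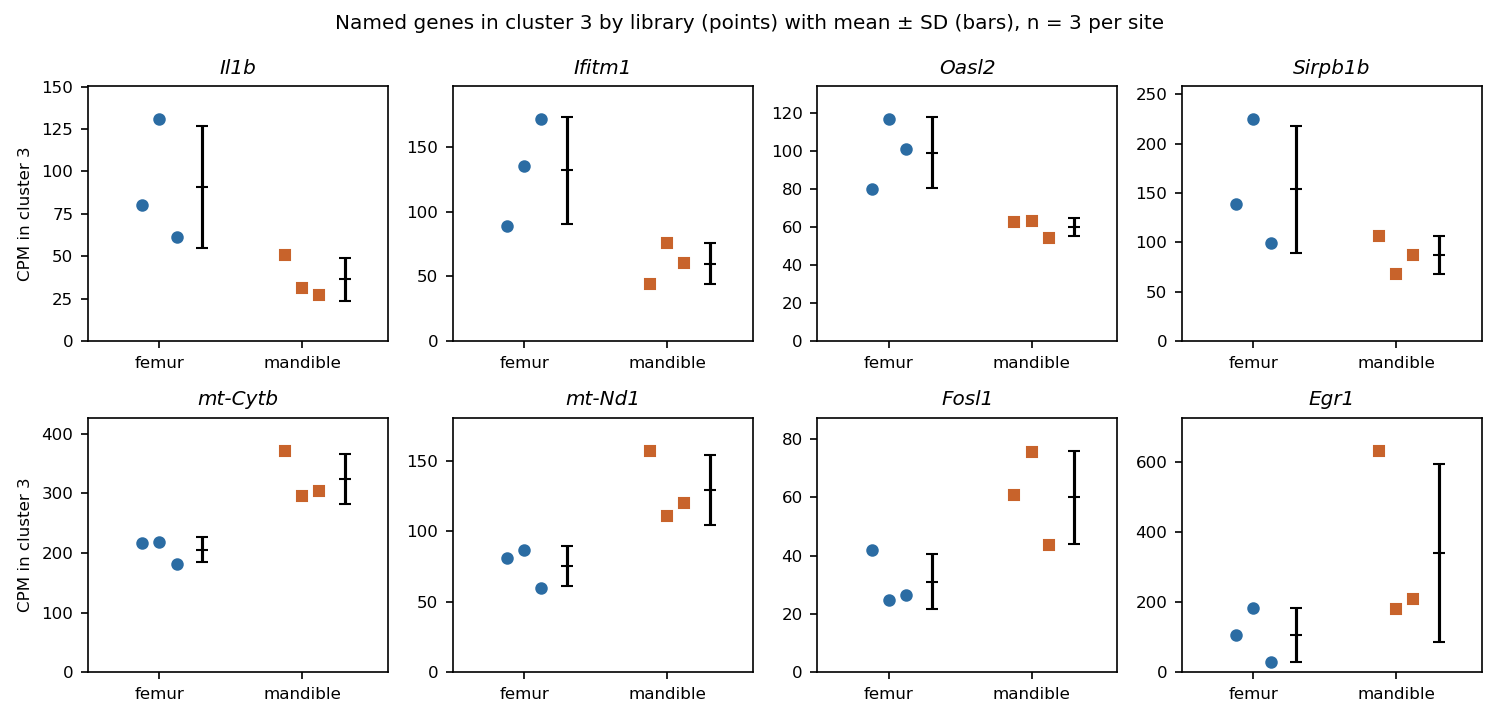
Levels of 8 genes in cluster 3 as CPM (y axis, linear from 0) in each femur and mandible library (points, by site on the x axis), with the mean ± SD of 3 libraries as bars. Il1b, Ifitm1 and Oasl2 lie lower in every mandible library and mt-Cytb, mt-Nd1 and Fosl1 higher, Sirpb1b and Egr1 overlap, and none of the 8 passed the adjusted threshold of the edgeR test as reported.

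In the remaining lists of neutrophil and cell biology genes few members reached an unadjusted p under 0.05, beside 4.38% of all genes in either direction. A count of 0 or 1 in lists this short cannot be told apart from that share. None did among 14 retention and egress receptors, with Cxcr2 at -0.20 ± 0.15 and Cxcr4 at 0.06 ± 0.23, nor among 18 granulocyte transcription factors, where Cebpe measured 76.4, 86.6 and 93.5 CPM in femur and 113, 104 and 115 CPM in mandible libraries without overlap (0.36 ± 0.16; edgeR unadjusted p = 0.0532) and Mxd1, a repressor that opposes Myc, was lower without overlap (-0.41 ± 0.19). None did among 8 NADPH oxidase subunits, 17 pattern recognition and chemoattractant receptors, 10 chemokines and cytokines, 22 genes of glycolysis and glycogen, 22 of the cytoskeleton, 6 S100 proteins, 8 stefins and cystatins and 11 genes of S phase. The 20 late neutrophil genes had 3 lower (Il1b, Ifitm1 and Wfdc17) and 0 higher, beside 2.71% and 1.67% of all genes, with a median of -0.14, beside -0.01. Single genes with such a p, beside the same 4.38% of all genes, were Mpo among 7 primary granule genes, at 0.876 to 1.59 CPM in femur and 1.602 to 4.90 CPM in mandible libraries, Cr1l among 8 Fc and complement receptors, Il1b among 11 IL-1 family genes, Ncapd2 among 16 G2M genes and Pmaip1 among 12 survival genes. Of these Mpo, Ncapd2 and Pmaip1 were below 10 CPM and were named after their values were seen.

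Some markers of other cell types had such a p as well, each below 10 CPM, and their part in the other values was not tested. Beside the 2 ameloblast genes, an unadjusted edgeR p under 0.05 was reached in mandible on the higher side by Ppbp, a platelet chemokine (1 of 2 platelet genes tested), by Igkc, an antibody light chain (1 of 3 B lineage genes), and by Col1a1, a collagen of bone (1 of 3 bone and stroma genes), beside 1.67% of all genes. On the lower side it was reached by the monocyte marker Ctss (1 of 9) and the dendritic marker H2-Eb1 (1 of 5), beside 2.71% of all genes. These 5 were named after their values were seen. Ppbp measured 0.292, 0.453 and 0.707 CPM in femur and 1.602, 2.36 and 3.12 CPM in mandible libraries, without overlap (2.12 ± 0.47 on the log2 scale; edgeR adjusted p = 0.454). The 5 erythroid genes tested, which encode globins and a peroxiredoxin, had log2 fold changes from 0.35 to 0.77, with 0 at such a p. No gene tested from the macrophage, T and NK or eosinophil, basophil and mast cell lists had one.

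**Figure D5:**
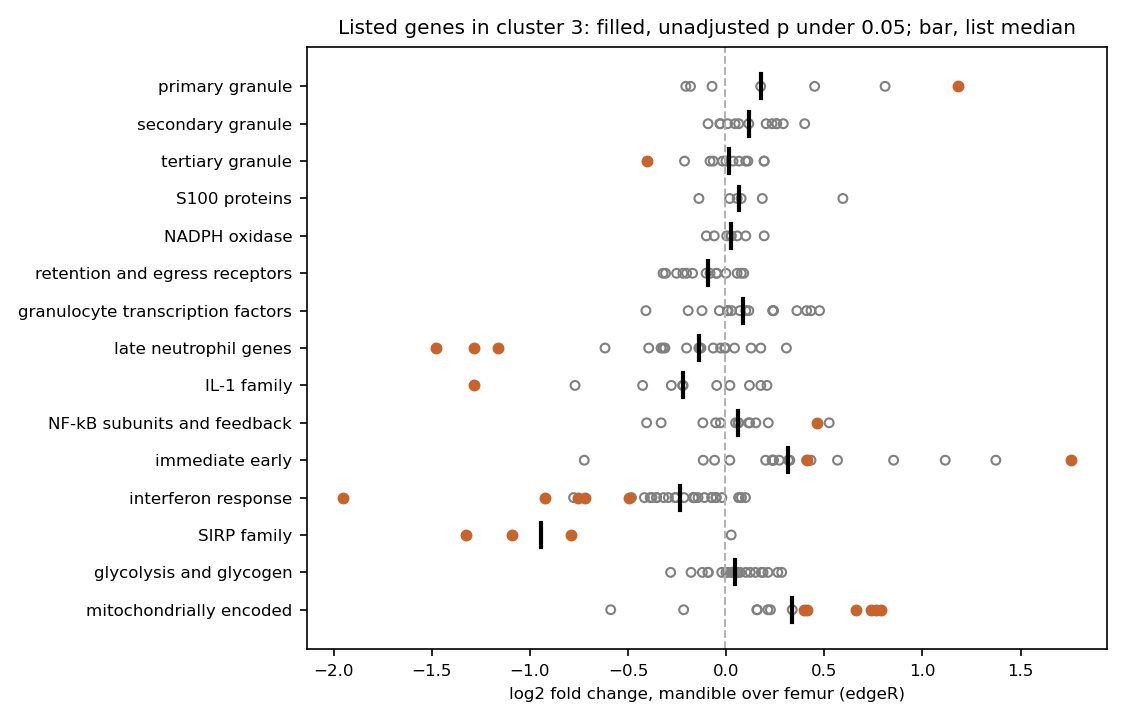
Log2 fold changes of mandible over femur in cluster 3 for the tested genes of 15 lists (x axis), 1 row per list, with single genes as circles, filled at an unadjusted edgeR p under 0.05, and the list median as a bar. Medians lie at 0.34 for the mitochondrially encoded genes, 0.32 for immediate early genes, -0.22 for the IL-1 family, -0.24 for interferon response genes and -0.94 for the SIRP genes, and those of the other 10 lists from -0.14 to 0.18, beside -0.01 over all genes. The IL-1 family median was -0.05 over its genes at 10 CPM or more, and the full list ran from -0.19 to -0.04 with 1 library left out. The primary granule median of 0.18 was -0.07 over its genes at 10 CPM or more. With 1 library left out, the median of that full list ran from -0.04 to 0.44.

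Whether the site effect differed from that in neighbouring neutrophils of clusters 0 and 2 was tested on the difference between clusters within each library, with limma. Cluster 1, with which these cells shared a cluster at resolution 0.075, was not compared in this way. Against cluster 0, 0 of 9267 genes passed an adjusted p of 0.05 (0%) and 679 (7.33%) had an unadjusted p under 0.05, and against cluster 2, 0 of 9084 passed (0%) and 906 (9.97%) had one. Il1b had log2 fold changes of -1.30 in cluster 3 and -1.002 in cluster 0, with a difference of -0.29 ± 0.40 (limma adjusted p = 0.848), and -1.24 in cluster 2, with a difference of -0.05 ± 0.41 (limma adjusted p = 0.980). The site difference of Il1b is therefore not shown to be particular to cluster 3.

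Retnlg, on the same scale, was at -0.05 in cluster 3 and 0.48 in cluster 0, a difference of -0.54 ± 0.12 (limma unadjusted p = 0.0048, adjusted p = 0.679), and its difference from cluster 2 was -0.24 ± 0.10 (limma unadjusted p = 0.047, adjusted p = 0.496). Mmp8 was at 0.06 in cluster 3 and 0.45 in cluster 2, a difference of -0.39 ± 0.08 (limma unadjusted p = 0.00264, adjusted p = 0.293), and its difference from cluster 0 was -0.32 ± 0.19 (limma adjusted p = 0.728). For Mmp9 the differences were -0.23 ± 0.12 from cluster 0 and -0.13 ± 0.08 from cluster 2 (limma adjusted p = 0.720 and 0.668). Since the clusters were made from genes such as these 3 markers, their differences are not independent of how cells were assigned. The smallest p against cluster 0 belonged to Ambn, 4930578M01Rik and Amelx, of which 4930578M01Rik, a noncoding transcript, was at 1.22 in cluster 3 and 0.04 in cluster 0 (limma adjusted p = 0.489). In cluster 2 this transcript was at 0.99, a difference of 0.23 ± 0.53 (limma adjusted p = 0.922). Against cluster 2 the smallest p belonged to Lmo1, a transcriptional cofactor, at 0.69 and 1.70, Ggta1, a galactosyltransferase, at -0.11 and 1.26, and Ptgir, the prostacyclin receptor, at 0.13 and 0.94 (limma adjusted p = 0.194, 0.194 and 0.251).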

How the data were processed

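Per the labels and methods, the authors aligned droplet reads to mm10 with Cell Ranger 7.0.1, kept cells with 600 to 6000 genes and at most 20% mitochondrial UMIs, and integrated and clustered them in Seurat (R 4.1.0). The deposited matrices hold raw UMI counts per gene and barcode, and the deposited metadata hold the clusters, labels and the mitochondrial percent of each cell. Counts of cluster 3 were summed per library and compared between sites with the edgeR 4.0.16 quasi-likelihood test (TMM factors, low-count filter, Benjamini-Hochberg adjustment over all genes tested), and between clusters with limma 3.58.1 on differences of log2 CPM within each library (prior count of 2). Shares were compared by exact permutation over the 20 assignments of 6 libraries. Scripts ran in R 4.3.3 and Python 3.11.15 and were tested on simulated data. Alternatives were other scalings, no filter, DESeq2 1.42.0, each library left out, replicate blocks and subsets of cells. Doublets were not called, and cells of over 2 times the median UMIs were left out as an alternative. Sex-linked genes that mark the sex of a mouse were not named. The authors also deposited a table of fold changes and p-values of each cluster against all other cells, which was not used here. Genes named were the markers, the granule genes and the list drawn mostly from the study's account, at 10 CPM or more, genes past the threshold, the 8 highest and 8 lowest fold changes at 20 CPM or more without overlap and with an unadjusted p under 0.05, up to 4 genes of each other list, the 10 highest and 10 lowest ratios to clusters 0 and 2, and the 3 smallest p of each difference between clusters. Members and lists were chosen with earlier results of these data known. Promoters are from RefSeq, for 3 genes, and gene positions from GENCODE vM21 matched for 178 of 178 genes.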

Additional observations from a re-analysis of the deposited data

How the results depend on the processing

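The count of 1 gene between sites, Amelx, was unchanged with RLE factors, in neutrophil-labelled cells, in G1 cells, without cells of over 2 times the median UMIs (added after seeing the data), and with any 1 library left out (1 to 1). It was 2 with library totals only, 134 with no filter on low counts (38 higher, 96 lower), and 30 with DESeq2 (12 higher, 18 lower, with an adjusted p of NA for 9873 genes). With the titles' replicate number as a replicate block it was 1. With the library number as a replicate block in the 4 male libraries it was 499 (268 higher, 231 lower), and without that block in the same libraries (added after seeing the data) edgeR called 0, with 442 at an unadjusted p under 0.05. Deviations correlated at 0.595 and 0.525 in the library-number pairs and at 0.056, -0.567 and 0.1 in the title-number pairs. There are only 2 library-number pairs and the labels do not say what that number marks. Whether it marks a shared animal, day or batch was not tested. The adjusted p of Amelx was 0.269 in the 4 male libraries with no block, within a range of 1.45e-64 to 0.269 over all alternatives. The difference of the site effect from cluster 0 gave 0 to 1 genes with 1 library left out, the 1 being Ambn without mandible replicate 1.

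Of the 41 genes followed through the alternative settings, Lrrk2 turned its sign, to 0.0738 with the library-number replicate block, 0.0666 in the same libraries without it and 0.000863 without cells of high UMIs. Other named genes were not followed. With 1 library left out, log2 fold changes ran from -0.122 to 0.0566 for Lrrk2, -0.79 to 0.17 for Ifitm2, -0.0111 to 0.199 for Mmp8 and -0.26 to 0.17 for Retnlg, the difference in S calls from -0.998 to 0.184 percentage points and that in granulocyte labels from -0.0807 to 1.79. With 3 libraries a site, depth of 6734719 to 16976281 UMIs and 1 female femur library, a gene that did not pass is not shown to be equal between sites. The smallest exact p of 0.1 limits shares. In other settings 63 values of the 41 genes followed passed the threshold that did not in the reported fit.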
